A study of Mus musculus with 30 samples.

Results

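The comparison set RNA of astrocytes and RNA of neurons, both sorted magnetically from the nucleus accumbens of saline-injected mice, against RNA of the unsorted tissue, and asked which genes differed from tissue in the same direction in both sorted preparations. All mice were C57BL/6J. They were injected with saline, the control for the glucocorticoid receptor agonist dexamethasone, and RNA was taken 4 h later. Each of the 3 preparations had 5 arrays, every array held the RNA of 1 mouse, and these 15 arrays were chosen by title from the 30 of the series. The 15 dexamethasone arrays (4 mg/kg, the same strain, preparations and 4 h) held other RNA samples. They shared the normalization and the detection filter with the saline arrays, and the same differences were measured in them again. Age and sex of the mice, the antibodies and the steps of the dissociation are not stated in the labels used here, nor is whether cells and tissue of 1 replicate number came from the same mice. A gene was counted as shared when its difference from tissue was called in astrocytes and in neurons, each at an adjusted p under 0.05 (limma, Benjamini-Hochberg over all genes tested), with the same sign. By that rule 995 of 13228 tested genes were shared, 313 higher and 682 lower than tissue.

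The nucleus accumbens is part of the ventral striatum. Most of its neurons are medium spiny projection neurons, and a minority are local interneurons that release GABA or acetylcholine and carry peptides such as somatostatin. To sort cells from it, tissue is dissociated into a suspension, and cell bodies that carry a surface marker are held or passed by a magnet. Processes torn from cell bodies, and cell types that do not survive the dissociation or are removed by the sort, are then absent from both preparations, whereas the unsorted tissue keeps them. Dissociation is also known to induce immediate early genes, whose transcription starts within minutes of a stimulus and needs no new protein.

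The share of probes detected, in percent, was 39.98 ± 1.75 (SD, n = 10 arrays) in the sorted preparations and 43.0 ± 1.17 (n = 5) in tissue, a difference of -3.04 (two-sided exact permutation test over 3003 assignments, p = 0.00633). The labels of the preparations were checked against 32 gene lists, of which 16 hold markers of cell types. The mean level (normalized log2 intensity) of the 19 tested astrocyte markers lay between 13.6 and 13.9 on the astrocyte arrays, between 11.2 and 11.4 on the tissue arrays and between 8.42 and 9.71 on the neuron arrays. For the 15 tested markers of medium spiny neurons the range was 12.9 to 13.2 on neuron arrays, 12.1 to 12.4 on tissue arrays and 8.40 to 10.3 on astrocyte arrays. Both lists separated the 3 preparations in the order of their labels. The general neuron list did not place neurons highest. Its mean level was 12.70 to 12.95 on tissue arrays, 12.49 to 12.67 on neuron arrays and 10.2 to 10.7 on astrocyte arrays. The dividing cell list was highest on neuron arrays, at 9.29 to 9.69 against 6.71 to 6.93 on tissue arrays. The label descriptions give every group 1 fixed position on the chips, so position and group cannot be told apart. Among the 15 saline arrays the mean correlation of an array with its group was 0.957 to 0.980. Among the dexamethasone arrays, tissue replicate 5 stood apart from its group, with 50.2% of probes detected and a mean correlation of 0.909 with the other 4.

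Taken singly, the preparations differed from tissue at many genes. Astrocytes differed at 6858 genes (51.8% of those tested) and neurons at 3562 (26.9%). The mean of the sorted groups minus tissue was called for 4510 genes (34.1%), 1972 higher and 2538 lower. Of the 4510, 3515 were not shared, that is, missed the threshold in at least 1 preparation or had opposite signs. A further property of the fits was that 1413 genes (10.7%) were called in both preparations with opposite signs, against 995 (7.52%) with the same sign. The comparisons with astrocytes and with neurons use the same 5 tissue arrays, which pushes their errors the same way, so the number of shared genes is given as a description.

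The 313 genes higher in both made up 2.37% of the tested genes and the 682 lower in both 5.16%. Their median log2 difference from tissue was 0.89 in astrocytes and 0.77 in neurons for the raised genes, and -1.18 and -0.93 for the lowered genes. Over all tested genes the medians were -0.04 and 0.00. A difference of at least 2-fold in both preparations was found for 65 raised genes (0.491% of those tested) and 201 lowered genes (1.52%). All 10 sorted arrays lay above all 5 tissue arrays for 129 of the 313 and all below for 436 of the 682. The same separation was seen for 139 (1.05%) and 516 (3.9%) of all tested genes. The threshold fell close to Zhx1, whose larger adjusted p of 0.0493 placed it among the raised genes, and to Gzmm, which stayed out at 0.0514. On the lowered side Cep97 was inside at 0.0497 and A630054M16Rik outside at 0.0504.

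**Figure D1:**
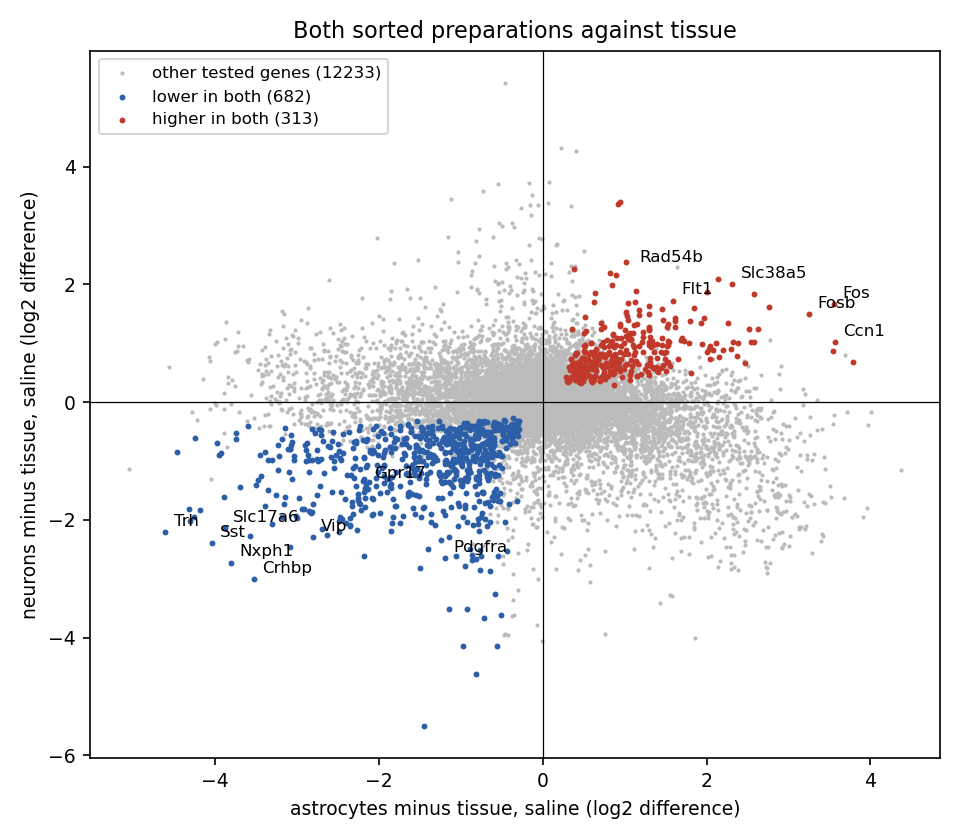
Log2 difference from tissue of every tested gene in astrocytes (horizontal axis) and in neurons (vertical axis) under saline, 1 point per gene. The 313 genes higher in both are red, the 682 lower in both are blue, and the other genes are grey. The lowered genes reach further from the origin than the raised ones.

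Shared genes were not always equally displaced in both preparations. Of the 313 raised genes, 98 also differed between astrocytes and neurons, 72 of them further from tissue in astrocytes and 26 in neurons, and 215 were not called. Of the 682 lowered genes 358 differed, 271 lower in astrocytes and 87 lower in neurons. Over all tested genes that comparison called 7695 (58.2%), 27% of the tested genes higher and 31.2% lower in astrocytes. In RNA from many cells, fewer cells of a type and less RNA per cell cannot be told apart, and this holds for every difference below.

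Among the lowered genes, transcripts of local interneurons stood out by count. Of 19 tested interneuron genes, 14 were lower in both and 0 higher (all genes: 5.16% and 2.37%). The 14 were Calb2, Cck, Chat, Elfn1, Kit, Nkx2-1, Npy, Pvalb, Slc18a3, Slc5a7, Sst, Tacr1, Th and Vip. Singly, the same 14 were lower and 1 higher in neurons (all genes: 15.9% and 11.1%). In astrocytes 17 were lower and 0 higher (27.6% and 24.2%). The list's median difference was -1.94 in astrocytes and -1.31 in neurons. Its mean level was 9.57 to 9.72 on tissue arrays, 8.42 to 8.57 on neuron arrays and 7.27 to 7.81 on astrocyte arrays, so the 3 ranges did not overlap. The count was 10 to 14 when any 1 array was left out.

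Sst encodes somatostatin, a peptide that inhibits release from other neurons. Its level was 13.9, 13.8, 14.0, 13.8 and 14.0 in tissue, 10.97, 11.3, 11.9, 11.7 and 11.8 in neurons and 9.22, 9.75, 9.88, 10.2 and 10.3 in astrocytes. The 3 groups did not overlap, and neurons lay between the other two. The log2 difference from tissue was -2.39 ± 0.20 (SE, n = 5 per group) in neurons, with a limma adjusted p of 3.8e-07, and -4.04 ± 0.20 in astrocytes. Npy, the peptide neuropeptide Y of the same interneuron class, showed the same order, with levels of 11.995 to 12.6 in tissue, 9.96 to 11.2 in neurons and 7.48 to 8.58 in astrocytes. Its differences were -1.94 ± 0.24 and -4.26 ± 0.24.

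Vip, which encodes vasoactive intestinal peptide, was at 9.10, 10.2, 9.49, 9.84 and 9.14 in tissue, at 6.32, 7.66, 7.12, 7.40 and 7.81 in neurons and at 5.73, 6.15, 7.42, 6.84 and 7.63 in astrocytes. The sorted arrays all lay below tissue, and the preparations overlapped each other. Vip differed from tissue by -2.30 ± 0.36 in neurons and -2.81 ± 0.36 in astrocytes, and the 95% interval of the difference between the preparations was -1.28 to 0.26. Calb2, the calcium-binding protein calretinin, was lower by -1.96 ± 0.27 in neurons and -3.00 ± 0.27 in astrocytes. For Pvalb, which encodes parvalbumin of fast-spiking interneurons, the differences were -1.67 and -2.25. Of the 5 interneuron genes outside the shared set, Lamp5 was higher in neurons by 0.86 and lower in astrocytes by -3.76. The other 4, Cox6a2, Crh, Lhx6 and Nos1, were not called in neurons, where their differences ran from -0.53 for Crh to 0.25 for Cox6a2.

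Cholinergic interneurons, the source of acetylcholine within the striatum, were represented by Chat, Slc5a7 and Slc18a3, which encode the synthesizing enzyme, the choline transporter and the vesicular transporter. Slc5a7 was at 8.55, 8.50, 8.88, 8.98 and 8.58 in tissue, at 7.63, 6.48, 6.41, 7.49 and 6.16 in neurons and at 5.84, 5.72, 6.12, 5.89 and 5.82 in astrocytes. It was detected on 5 of 5 tissue arrays, 2 of 5 neuron arrays and 0 of 5 astrocyte arrays. Where a gene went undetected on a whole group, its fold is only a bound, and Slc5a7 was at least 4.04-fold lower in astrocytes, with a difference of -1.87 ± 0.25 in neurons (adjusted p = 3e-05). Chat was lower by -1.49 in neurons and -3.35 in astrocytes, and Slc18a3 by -1.47 and -1.85. Genes of the same cells that belong to no list, picked after their values were seen, were also shared: Slc10a4, a vesicular protein of cholinergic and monoaminergic terminals, at -1.83 and -4.18, Lhx8, a transcription factor of cholinergic neurons, at -1.76 and -2.33, and Ache, acetylcholinesterase, at -1.19 and -2.85.

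**Figure D2:**
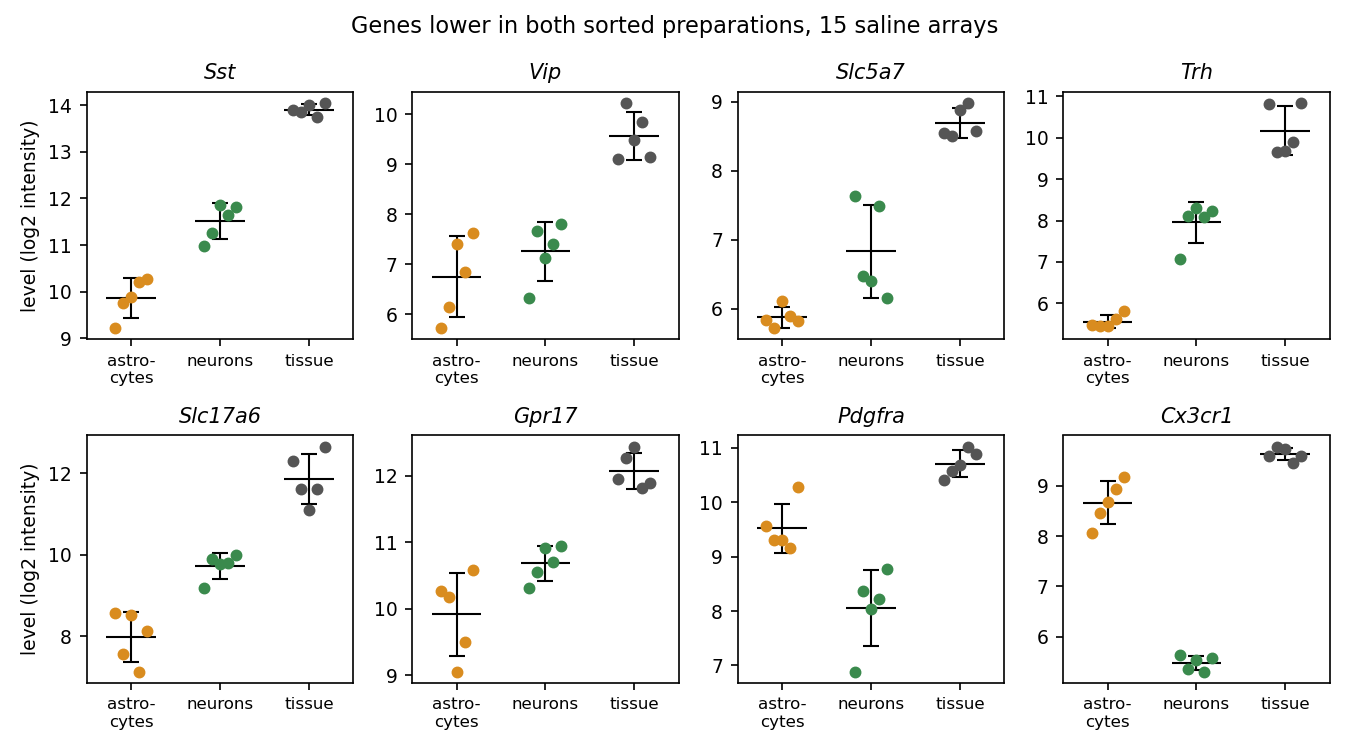
Level (normalized log2 intensity) of 8 genes lower in both sorted preparations, 1 point per array, 5 arrays in each of astrocytes, neurons and tissue, with the mean as a long line and the SD as a bar. For Sst the tissue arrays lie at 13.8 to 14.0, and for Cx3cr1 the astrocyte arrays lie between tissue and neurons.

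Neurons whose cell bodies lie mainly outside the accumbens, or beside it, were the next group. Of 16 tested genes of afferent or neighbouring neurons 7 were lower in both and 0 higher (all genes: 5.16% and 2.37%). The 7 were Ecel1, Gal, Hap1, Slc17a6, Slc17a7, Trh and Zic1. The median difference was -2.77 in astrocytes and -1.09 in neurons. Slc17a6, the vesicular glutamate transporter of thalamic and other subcortical neurons, was at 12.3, 11.6, 11.1, 11.6 and 12.7 in tissue, at 9.18, 9.89, 9.77, 9.79 and 9.99 in neurons and at 8.57, 7.55, 8.52, 7.13 and 8.13 in astrocytes. The 3 groups did not overlap, and the differences were -2.14 ± 0.31 in neurons (adjusted p = 8.1e-05) and -3.88 ± 0.31 in astrocytes. Slc17a7, the transporter of cortical neurons, was lower by -1.63 ± 0.42 and -2.25 ± 0.42, but its tissue range of 11.4 to 13.4 reached the neuron range of 9.82 to 11.4. With Slc17a8, at -1.70 and -2.32 and added after its value was seen, 3 of 3 vesicular glutamate transporters were lower in both.

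Trh, which encodes thyrotropin-releasing hormone, had tissue levels of 10.8, 9.64, 9.67, 9.89 and 10.8. On neuron arrays it was at 7.08, 8.11, 8.30, 8.09 and 8.22, and on astrocyte arrays it was detected 0 times in 5. Its difference was -2.21 ± 0.27 in neurons (adjusted p = 1.3e-05), and in astrocytes it was at least 11.2-fold lower. Gal, the peptide galanin, was lower by -1.61 ± 0.31 and -3.15 ± 0.31 in neurons and astrocytes. The call of Zic1, a transcription factor, was lost in 5 of the 15 fits that left out 1 array, with an adjusted p of up to 0.0611 without tissue replicate 1.

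The lowered genes farthest from tissue in both preparations included secreted or cell-surface ligands of neurons. Crhbp, which binds corticotropin-releasing hormone outside the cell, had the largest smaller difference of all shared genes, that is, of the pair of differences the one nearer 0. Its tissue levels were 9.57, 9.83, 9.53, 9.64 and 9.58, its neuron levels 5.71, 6.13, 6.62, 7.33 and 7.32, and its astrocyte levels 6.49, 6.04, 5.62, 6.31 and 6.04. It was detected on 5 tissue arrays, 3 neuron arrays and 0 astrocyte arrays. The difference was -3.01 ± 0.27 in neurons (adjusted p = 6e-07), and in astrocytes the gene was at least 7.71-fold lower.

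Nxph1, neurexophilin 1, is a secreted ligand of the presynaptic neurexins. Tissue arrays gave 10.5, 10.3, 10.6, 10.9 and 10.7, neuron arrays 6.93, 7.71, 8.19, 8.62 and 8.0 and astrocyte arrays 6.20, 6.50, 7.01, 6.94 and 7.43. Every tissue array stood clear above every sorted array. The differences were -2.73 ± 0.28 in neurons and -3.80 ± 0.28 in astrocytes. Its relative Nxph2 was also lower in both, at -1.59 and -1.51, whereas Nxph4 was not shared. Cerebellins, which bridge neurexins to glutamate receptors of the delta class, showed 3 of 3 tested genes lower in both (Cbln1, Cbln2 and Cbln4), with differences of -1.61 to -2.10 in neurons and -2.35 to -3.89 in astrocytes. These families were assembled after their values were seen.

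Slc8a1, a sodium-calcium exchanger of the plasma membrane, was at 11.1, 10.1, 10.8, 10.9 and 11.3 in tissue, at 8.08, 8.62, 8.22, 8.45 and 8.45 in neurons and at 7.33, 7.19, 8.22, 7.63 and 8.37 in astrocytes. Its differences were -2.47 ± 0.25 and -3.08 ± 0.25, with neurons slightly above astrocytes (adjusted p of that difference 0.041). Mkx, a homeobox transcription factor, was detected on 5 of 5 tissue arrays and on 0 of 10 sorted arrays. It was at least 1.94-fold lower in neurons and at least 1.91-fold lower in astrocytes, since its tissue level of 7.13 to 8.23 was itself low. In all, 47 of the 682 lowered genes were detected on no sorted array. The other genes among the 12 most lowered were Slc10a4l, Vwc2l, 2310005C01Rik, Itgad, an integrin subunit of leukocytes, and Sertm1. Their smaller differences ran from -2.28 for Slc10a4l to -2.16 for Sertm1.

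Of 17 tested genes of the general neuron list, 7 were lower in neurons (all genes: 15.9%) and 1 (Reln, at 0.92 ± 0.19) was higher (11.1%). In astrocytes 15 were lower (27.6%). The 7 were lower in both (Nefm, Snhg11, Stmn2, Syp, Syt1, Thy1 and Uchl1), with 0 higher in both (all genes: 5.16% and 2.37%). The count was 4 when arrays were scaled to a common median. The list's median was -0.28 in neurons and -2.57 in astrocytes, and its mean level was 12.7 to 13.0 in tissue, 12.5 to 12.7 in neurons and 10.2 to 10.7 in astrocytes. Stmn2, a tubulin-binding protein of growing axons, was at 12.9, 13.2, 13.0, 12.8 and 12.8 in tissue and at 11.6, 11.6, 11.8, 12.04 and 11.9 in neurons. The groups did not overlap, and the difference was -1.16 ± 0.18 (adjusted p = 0.00017) in neurons and -3.23 ± 0.18 in astrocytes. Uchl1, a deubiquitinase abundant in neurons, differed by -0.73 ± 0.17 and -3.24 ± 0.17. By contrast with the interneuron list, 0 of 15 medium spiny neuron genes were lower in both. In neurons 9 of those 15 were higher and 0 lower (all genes: 11.1% and 15.9%), and in astrocytes 15 of 15 were lower (all genes: 27.6%), so that no member could be shared.

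Transcripts of the presynaptic vesicle machinery were lower in both for 8 of 20 tested genes, with 0 higher (all genes: 5.16% and 2.37%). The 8 were Cplx1, Napb, Rab3a, Sncb, Sv2a, Syp, Syt1 and Vamp1. Syp and Syt1 stand in the general neuron list as well. Sncb, beta-synuclein, was at 12.9, 13.0, 13.0, 13.1 and 13.1 in tissue, at 11.3, 11.3, 11.4, 11.6 and 11.6 in neurons and at 9.87, 9.57, 9.50, 9.58 and 10.3 in astrocytes. Each group kept to a narrow range of its own, and the differences were -1.57 ± 0.14 (adjusted p = 6.9e-07) and -3.25 ± 0.14. Vamp1, a SNARE protein of the vesicle membrane, was lower by about the same amount in both, at -1.34 ± 0.19 in neurons and -1.25 ± 0.19 in astrocytes, with a 95% interval for the difference of -0.31 to 0.51. Syp, the vesicle protein synaptophysin, was lower by -0.74 ± 0.16 and -2.91 ± 0.16. The list's median was -0.39 in neurons and -2.08 in astrocytes.

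Of 7 tested noncoding RNAs of brain, Meg3, Snhg11 and 6330403K07Rik were lower in both and Dleu2 was higher in both (all genes: 5.16% and 2.37%). Meg3, an imprinted noncoding RNA, was at 9.95 to 10.7 in tissue, 9.16 to 9.82 in neurons and 5.49 to 6.56 in astrocytes, with differences of -0.85 ± 0.21 and -4.47 ± 0.21. Dleu2, the host transcript of microRNAs 15a and 16-1, was higher by 1.22 ± 0.24 in neurons and 1.30 ± 0.24 in astrocytes. The calls of Snhg11 and 6330403K07Rik, and of Thy1 and Cplx1 above, were lost when arrays were scaled to a common median. Their adjusted p then lay at 0.289, 0.0762, 0.125 and 0.406.

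Precursors of oligodendrocytes, which express Pdgfra and Cspg4 and divide throughout adult life, were represented by 11 tested genes. Of these, 8 were lower in both and 0 higher (all genes: 5.16% and 2.37%). The 8 were Bmp4, Enpp6, Gpr17, Lhfpl3, Matn4, Neu4, Pdgfra and Sox10. Cspg4, Olig1 and Olig2 were outside the shared set and were not called in astrocytes. Singly, 10 of the 11 were lower in neurons (all genes: 15.9%) and 8 in astrocytes (27.6%). The list's mean level was 9.96 to 10.2 in tissue, 8.25 to 9.13 in neurons and 8.59 to 9.34 in astrocytes. Gpr17, a receptor of precursors committed to differentiate, was at 11.9, 12.3, 12.4, 11.8 and 11.9 in tissue, at 10.3, 10.5, 10.9, 10.7 and 10.9 in neurons and at 10.3, 10.2, 9.05, 9.50 and 10.6 in astrocytes. Every sorted array lay below every tissue array, and the differences were -1.39 ± 0.25 (adjusted p = 0.00051) and -2.16 ± 0.25. Pdgfra, the platelet-derived growth factor receptor that marks these cells, was at 10.4, 10.6, 10.7, 11.02 and 10.9 in tissue, at 6.89, 8.37, 8.04, 8.22 and 8.77 in neurons and at 9.56, 9.31, 9.30, 9.16 and 10.3 in astrocytes. Its order was the reverse of that of Gpr17, with neurons lower than astrocytes, at -2.65 ± 0.29 and -1.19 ± 0.29. Lhfpl3 was lower by -1.64 ± 0.31 and -1.83 ± 0.31. Enpp6, a choline phosphodiesterase of newly formed oligodendrocytes, lost its call in 6 of the 15 fits without 1 array, with an adjusted p of up to 0.0938 without neuron replicate 1.

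Of 14 tested myelin genes of mature oligodendrocytes, 12 were lower in neurons (all genes: 15.9%) and 5 in astrocytes (27.6%). Those 5 (Cldn11, Mag, Mog, Opalin and Ugt8a) were lower in both (all genes: 5.16%). Mag, the myelin-associated glycoprotein, was at 14.7 to 15.2 in tissue, 11.6 to 13.1 in neurons and 13.5 to 14.5 in astrocytes, with differences of -2.50 ± 0.27 and -0.89 ± 0.27. The astrocyte differences of all 5 were between -0.68 and -0.89 and depended on scaling. With cyclic loess 0 of 14 genes were lower in both, and the adjusted p of Mag was 0.0716. Without astrocyte replicate 3 the adjusted p of Mog was 0.102 and that of Opalin 0.0857.

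Microglia are the resident macrophages of brain. Of 18 tested microglia and macrophage genes 6 were lower in both (C1qb, C1qc, Cx3cr1, Tmem119, Trem2 and Tyrobp) and 0 higher (all genes: 5.16% and 2.37%). For each of the 6 the difference was larger in neurons. Cx3cr1, the fractalkine receptor, was at 9.60, 9.78, 9.73, 9.46 and 9.60 in tissue and at 8.07, 8.45, 8.68, 8.94 and 9.18 in astrocytes, and was detected on 0 of 5 neuron arrays. It was at least 7.87-fold lower in neurons and differed by -0.97 ± 0.17 (adjusted p = 0.00018) in astrocytes. C1qc, a chain of complement C1q, was lower by -4.63 ± 0.22 in neurons and -0.81 ± 0.22 in astrocytes. In neurons 15 of the 18 genes were lower (all genes: 15.9%) and in astrocytes 7 (all genes: 27.6%). The astrocyte calls of Tmem119 and C1qb were lost in 4 of the 15 fits each, with adjusted p of up to 0.0800 without tissue replicate 4 and up to 0.0584 without tissue replicate 1.

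Meningeal fibroblast genes, like those of microglia, were more often lower in neurons. Of 13 tested, 11 were lower and 0 higher in neurons (all genes: 15.9% and 11.1%), and 5 were lower and 2 higher in astrocytes (27.6% and 24.2%). In both preparations 4 were lower (Aebp1, Ptgds, Slc13a4 and Slc6a13) and 0 higher (all genes: 5.16% and 2.37%). Ptgds, the prostaglandin D synthase secreted into cerebrospinal fluid, was at 12.7, 12.9, 13.1, 13.1 and 13.2 in tissue, at 7.56, 6.77, 7.36, 7.63 and 8.11 in neurons and at 11.2, 11.3, 11.2, 12.7 and 11.2 in astrocytes. Astrocyte replicate 4 reached the lowest tissue array, and the differences were -5.50 ± 0.28 and -1.45 ± 0.28. With the chip as a block the calls of Slc13a4 (adjusted p = 0.0636) and Slc6a13 (0.0535) were lost, and without 1 array their adjusted p reached 0.130 (without astrocyte replicate 5) and 0.122 (without tissue replicate 5). Of 13 choroid plexus and ependyma genes, 4 were lower and 1 higher in neurons (all genes: 15.9% and 11.1%). In astrocytes 1 was lower and 1 higher (27.6% and 24.2%). The list's medians were -0.17 in neurons and -0.18 in astrocytes. In both preparations only Sostdc1 was lower (all genes: 5.16%). Its call was lost in 9 of the 15 fits, with an adjusted p of up to 0.113 without tissue replicate 3.

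**Figure D3:**
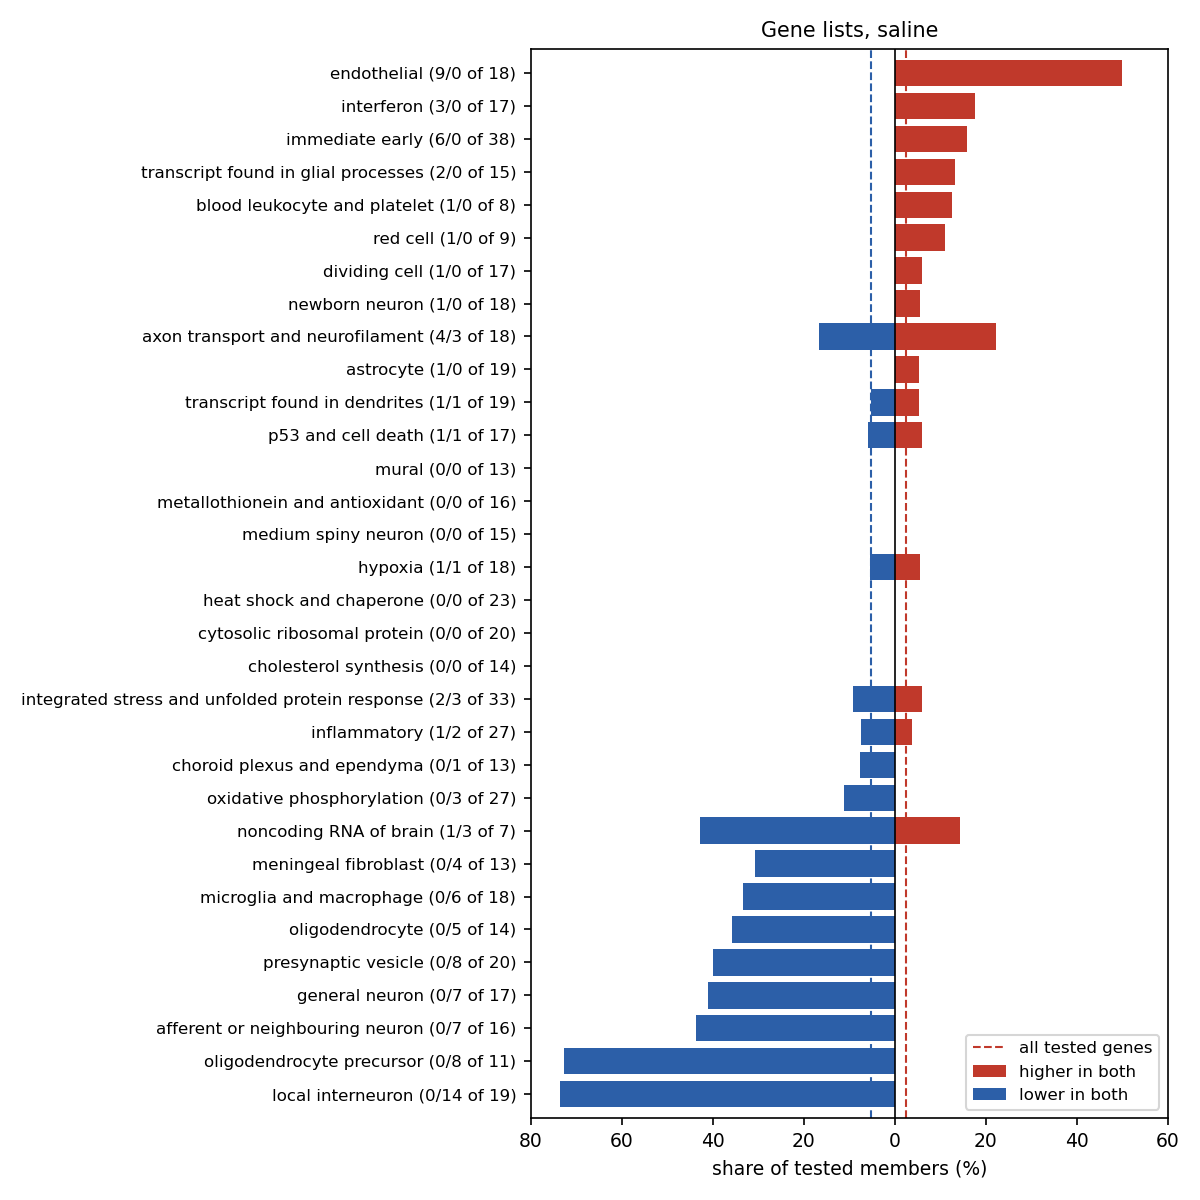
Share of the tested members of each gene list that were lower in both sorted preparations (blue, to the left) or higher in both (red, to the right) under saline, with the counts higher and lower and the number tested in brackets. Dashed lines mark the shares over all tested genes, 5.16% lower and 2.37% higher. Local interneuron, oligodendrocyte precursor and endothelial lists lie farthest from them.

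Genes higher in both preparations included many of endothelial cells, which line blood vessels. Of 18 tested endothelial genes 9 were higher in both (Cdh5, Cldn5, Esam, Flt1, Pecam1, Ptprb, Tek, Tie1 and Vwf) and 0 lower in both (all genes: 2.37% and 5.16%). Singly, 14 were higher and 0 lower in astrocytes (all genes: 24.2% and 27.6%). In neurons 12 were higher and 1 lower (11.1% and 15.9%). The list's median difference was 1.20 in astrocytes and 0.95 in neurons. Its mean level was 10.004 to 11.1 on astrocyte arrays, 10.2 to 10.8 on neuron arrays and 9.42 to 9.67 on tissue arrays, so that the tissue arrays lay below all sorted arrays. The count was 7 to 11 when any 1 array was left out.

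Flt1, a receptor of vascular endothelial growth factor, was at 12.3, 11.5, 13.1, 13.3 and 12.2 in astrocytes, at 12.6, 12.2, 12.8, 12.4 and 12.9 in neurons and at 10.6, 11.0, 11.3, 10.95 and 10.5 in tissue. All sorted arrays lay above tissue, and the preparations overlapped. The differences from tissue were 1.59 ± 0.29 (adjusted p = 0.00018) and 1.72 ± 0.29 (0.00028), and the 95% interval of the difference between preparations was -0.74 to 0.47. Ptprb, the receptor phosphatase of endothelial junctions, was higher by 1.62 ± 0.31 in astrocytes and 1.38 ± 0.31 in neurons. Pecam1, an adhesion molecule of the same junctions, differed by 1.47 ± 0.24 and 1.40 ± 0.24, although the tissue array of replicate 2, at 8.0, lay above the lowest astrocyte array, at 7.96. Vwf, the clotting protein von Willebrand factor, was higher by 1.52 ± 0.28 and 1.28 ± 0.28, and Cdh5, VE-cadherin, by 1.22 ± 0.25 and 1.11 ± 0.25.

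For Vwf, Tie1, Cdh5, Pecam1, Flt1 and Ptprb alike, astrocytes and neurons were not called different from each other. Ccm2l, a relative of the vascular malformation gene Ccm2, stood among the 12 most raised genes, at 1.62 ± 0.32 and 1.42 ± 0.32. Further genes known from endothelium, picked after their values were seen, were shared as well, such as Adgrf5 (1.62 in astrocytes and 1.27 in neurons), Eng (1.12 and 1.31), Nos3 (1.08 and 1.05) and Robo4 (1.04 and 1.39). Col4a1 and Col4a2, collagens of the vascular basement membrane, were higher by 0.93 and 1.12 in astrocytes and by 0.60 and 0.68 in neurons. Mural cells, the pericytes and smooth muscle around the same vessels, did not follow. Of 13 mural genes 0 were shared, 9 being higher in astrocytes and 7 lower in neurons (all genes: 24.2% and 15.9%).

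**Figure D4:**
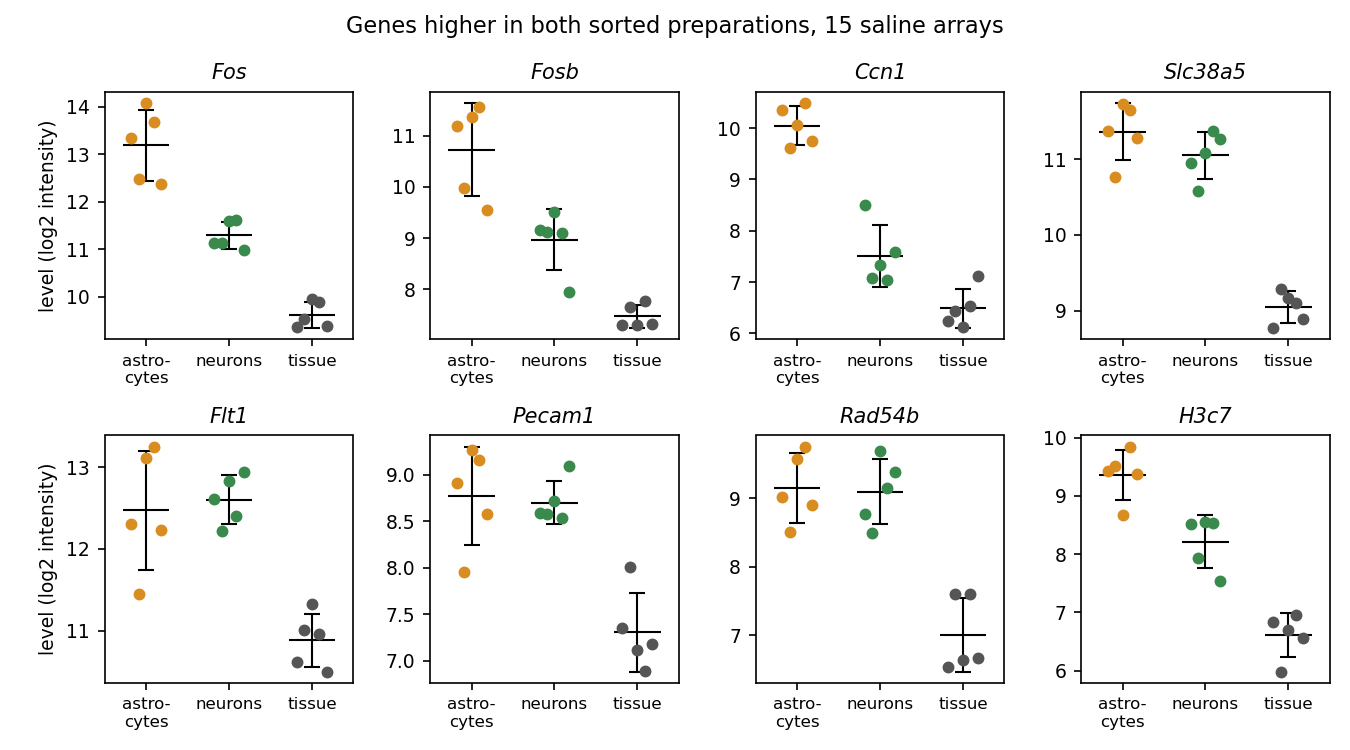
Level (normalized log2 intensity) of 8 genes higher in both sorted preparations, 1 point per array, 5 arrays in each of astrocytes, neurons and tissue, with the mean as a long line and the SD as a bar. For Fos and Fosb the astrocyte arrays lie above the neuron arrays, and for Flt1, Slc38a5 and Rad54b the preparations overlap.

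Of 38 tested immediate early genes, 6 were higher in both (Btg1, Ccn1, Dusp1, Fos, Fosb and Zfp36) and 0 lower (all genes: 2.37% and 5.16%). The promoters of 3 of them and of Socs3, the raised member of the inflammatory list, are shown here to set out which motif letters the starts of these stimulus-induced genes hold. They are the RefSeq promoters in build GRCm38.p6, each 300 bases around the start of the gene, 5′ to 3′ on the gene's strand, at chr12:85473640-85473939 (plus strand, Fos), chr7:19309996-19310295 (minus, Fosb), chr3:145649936-145650235 (minus, Ccn1) and chr11:117969317-117969616 (minus, Socs3). Capitals mark matches to the searched motifs.
Fos: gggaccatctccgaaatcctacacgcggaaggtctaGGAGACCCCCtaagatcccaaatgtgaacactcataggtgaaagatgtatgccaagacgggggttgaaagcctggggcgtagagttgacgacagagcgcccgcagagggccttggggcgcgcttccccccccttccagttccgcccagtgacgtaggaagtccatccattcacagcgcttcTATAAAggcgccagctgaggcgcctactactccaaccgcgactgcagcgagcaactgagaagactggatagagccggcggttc
Fosb: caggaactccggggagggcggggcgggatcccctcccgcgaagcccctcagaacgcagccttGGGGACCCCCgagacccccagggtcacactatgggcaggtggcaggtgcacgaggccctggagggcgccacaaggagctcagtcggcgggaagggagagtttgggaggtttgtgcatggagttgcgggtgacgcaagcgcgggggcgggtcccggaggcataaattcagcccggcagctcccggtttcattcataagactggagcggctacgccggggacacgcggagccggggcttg
Ccn1: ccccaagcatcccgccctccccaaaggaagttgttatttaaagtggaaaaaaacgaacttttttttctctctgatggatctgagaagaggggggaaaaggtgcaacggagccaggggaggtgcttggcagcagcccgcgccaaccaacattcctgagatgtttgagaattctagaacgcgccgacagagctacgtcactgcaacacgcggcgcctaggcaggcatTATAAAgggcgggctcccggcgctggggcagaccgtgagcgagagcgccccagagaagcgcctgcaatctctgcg
Socs3: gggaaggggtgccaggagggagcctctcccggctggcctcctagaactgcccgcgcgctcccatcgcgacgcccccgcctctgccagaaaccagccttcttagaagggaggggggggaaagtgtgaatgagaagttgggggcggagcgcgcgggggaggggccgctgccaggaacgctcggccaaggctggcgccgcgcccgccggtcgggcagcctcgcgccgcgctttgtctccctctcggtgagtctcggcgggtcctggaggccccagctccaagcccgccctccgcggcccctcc
The capitals are a kappaB match in Fos and Fosb and a TATA box (TATAAA) in Fos and Ccn1, and Socs3 held none. The kappaB pattern is met on both strands of Fosb at the same place, counted once, and no printed match overlaps another. Searched on both strands were also AP-1 (TGANTCA), CRE (TGACGTCA), the heat shock element, the C/EBP-ATF element (TGATGCAA) and, added later, the CArG box. None of these letters lay in these windows. The TATA box was present in 14.2% of 27025 RefSeq promoters, in 7.9% of those of 9798 tested genes and in 10.5% of those of 229 raised genes. The kappaB motif was in 8.18%, 10.2% and 10% of the same promoters, and AP-1 in 7.93%, 4.97% and 4.8%. CRE was in 1.88%, 3.3% and 3.49%, the heat shock element in 0.529%, 0.398% and 0.873%, C/EBP-ATF in 0.929%, 0.592% and 0.0%, and the CArG box in 1.57%, 1.41% and 2.62%. A match describes these letters only.

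Fos, the transcription factor subunit whose mRNA is the usual sign of recent stimulation, was at 13.3, 12.5, 14.1, 13.7 and 12.4 in astrocytes, at 11.1, 11.1, 11.6, 11.6 and 10.99 in neurons and at 9.36, 9.54, 9.95, 9.89 and 9.39 in tissue. The 3 groups did not overlap, with tissue lowest and astrocytes highest. Astrocytes exceeded tissue by 3.56 ± 0.28 (adjusted p = 2.9e-08), neurons exceeded it by 1.67 ± 0.28 (0.00034), and astrocytes exceeded neurons by 1.90 (2.2e-05). Its relative Fosb, at 11.2, 9.98, 11.4, 11.6 and 9.55 in astrocytes, 9.17, 9.12, 9.52, 9.09 and 7.95 in neurons and 7.31, 7.66, 7.31, 7.77 and 7.32 in tissue, kept the same order. The differences of Fosb were 3.25 ± 0.36 and 1.5 ± 0.36.

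Dusp1, a phosphatase that turns off MAP kinases, was higher by 2.01 ± 0.21 in astrocytes and 0.84 ± 0.21 in neurons, with all neuron arrays (11.8 to 12.3) above all tissue arrays (11.02 to 11.5). Btg1, an antiproliferative gene, differed by 0.93 ± 0.13 and 0.69 ± 0.13. Ccn1, a secreted matricellular protein, was higher by 3.56 ± 0.27 and 1.02 ± 0.27. Its neuron levels of 8.50, 7.07, 7.34, 7.04 and 7.59 overlapped the tissue levels of 6.25, 6.44, 6.12, 6.53 and 7.11, and its call was lost when a gene's detected probes were averaged. Zfp36, which destabilizes mRNAs of cytokines, was higher by 3.78 ± 0.22 in astrocytes and by 0.69 ± 0.22 in neurons, and the latter call was lost in 7 of the 15 fits without 1 array, with an adjusted p of up to 0.0764 without neuron replicate 3.

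Most immediate early genes were raised in 1 preparation or in neither. Of the 38, 19 were higher in astrocytes (all genes: 24.2%) and 9 in neurons (11.1%), and 7 were lower in astrocytes (27.6%) and 2 in neurons (15.9%). Jun was higher by 1.98 ± 0.21 in astrocytes and was not called in neurons, at 0.47 ± 0.21. Atf3 gave 3.34 ± 0.27 and 0.04 ± 0.27, and Ier2 1.93 ± 0.32 and 0.59 ± 0.32. Npas4, which neuronal activity induces, was higher in neurons by 1.55 ± 0.30 and lower in astrocytes by -3.18 ± 0.30. On astrocyte arrays Npas4 lay near background, at 5.67 to 6.54. Arc, a synaptic protein, differed by 0.96 ± 0.28 in neurons and -1.51 ± 0.28 in astrocytes. Egr1 was called in neither, at 0.21 ± 0.21 and -0.41 ± 0.21. The endothelial list was higher in both preparations on every sorted array, as given above, and its part in the immediate early differences was not tested.

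Of 27 tested inflammatory genes, 21 were higher (all genes: 24.2%) and 2 lower (27.6%) in astrocytes, and 1 was higher (11.1%) and 5 lower (15.9%) in neurons. The 1 gene higher in neurons, Socs3, was the sole member higher in both, while Ccl9 and Cd83 were lower in both (all genes: 2.37% and 5.16%). Socs3, which inhibits cytokine signalling, was at 10.7, 9.74, 10.8, 10.9 and 9.97 in astrocytes, at 7.73, 7.20, 8.23, 8.05 and 7.49 in neurons and at 6.88, 7.47, 6.59, 7.16 and 6.29 in tissue. Neurons overlapped tissue, and the differences were 3.55 ± 0.28 and 0.86 ± 0.28. The neuron call was lost in 6 of the 15 fits without 1 array, with an adjusted p of up to 0.0815 without tissue replicate 5. Cd83, a surface protein of antigen-presenting cells, was lower by -0.76 ± 0.24 in astrocytes and -2.51 ± 0.24 in neurons, and its call was lost with all 30 arrays in 1 fit (adjusted p = 0.0675). That of Ccl9 was lost in 3 of the 15 fits without 1 array, with an adjusted p of up to 0.0604 without astrocyte replicate 1. The adhesion molecule Vcam1 was higher in astrocytes by 2.93 ± 0.44 and lower in neurons by -1.87 ± 0.44. The chemokines Ccl3 and Ccl4 were higher in astrocytes by 3.97 ± 0.20 and 4.01 ± 0.33 and were not called in neurons, at -0.38 ± 0.20 and -0.17 ± 0.33.

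Of 23 tested heat shock and chaperone genes 0 were shared in either direction by limma. At an unadjusted p under 0.05 in both preparations, 0 were higher and 2 lower. Singly, 8 were higher and 6 lower in astrocytes (all genes: 24.2% and 27.6%), and 1 was higher and 5 lower in neurons (11.1% and 15.9%). The inducible Hspa1a was higher by 2.45 ± 0.35 in astrocytes and not called in neurons, at 0.70 ± 0.35. Hspa1b gave 2.24 ± 0.27 and 0.33 ± 0.27, with tissue near background at 5.49 to 6.56. Hspa8, the constitutive form, was lower in astrocytes by -0.61 ± 0.14 and was not called in neurons, at -0.30 ± 0.14. Bag3 and Hspb8, partners in chaperone-assisted autophagy, were higher in astrocytes by 1.31 and 1.63 and lower in neurons by -1.84 and -1.56.

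Of 33 genes of the integrated stress and unfolded protein responses, 2 were higher in both (Creld2 and Shmt2, all genes: 2.37%). In both, 3 were lower (Aars, Chac1 and Gars, all genes: 5.16%). Singly, 15 were higher and 8 lower in astrocytes (all genes: 24.2% and 27.6%), and 4 were higher and 10 lower in neurons (11.1% and 15.9%). The list's median difference was 0.27 in astrocytes and -0.15 in neurons. Chac1, which degrades glutathione and is a target of Atf4, was at 9.58 to 10.04 in tissue, 8.52 to 9.24 in neurons and 6.21 to 7.62 in astrocytes. It was lower by -0.91 ± 0.22 in neurons and -3.03 ± 0.22 in astrocytes. Aars, alanyl-tRNA synthetase, was lower by -0.46 ± 0.12 and -0.42 ± 0.12. Shmt2 and Gars lost their calls with the chip as a block, at adjusted p of 0.0514 and 0.0673, and up to 0.115 (without neuron replicate 4) and 0.102 (without neuron replicate 1) when 1 array was left out. Creld2 reached 0.0919 without neuron replicate 1.

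Of 17 interferon genes 3 were higher in both (Irf7, Isg15 and Rsad2) and 0 lower (all genes: 2.37% and 5.16%). Rsad2, the antiviral enzyme viperin, was at 11.6, 11.8, 11.9, 11.5 and 11.8 in neurons, at 9.39, 9.67, 8.57, 9.16 and 9.63 in astrocytes and at 8.08, 7.90, 8.08, 8.98 and 8.81 in tissue. Neurons stood above both other groups, by 3.36 ± 0.23 over tissue (adjusted p = 4.5e-08), while the astrocyte difference of 0.91 ± 0.23 came with overlapping arrays. Isg15, a ubiquitin-like protein, was higher by 1.14 ± 0.24 and 0.86 ± 0.24 in neurons and astrocytes. Irf7, a transcription factor of the interferon response, was detected on 0 of 5 tissue arrays. Neurons exceeded them at least 1.41-fold and astrocytes at least 1.73-fold. Without neuron replicate 2 the adjusted p of Irf7 was 0.0613. In astrocytes 16 of the 17 were higher (all genes: 24.2%), and in neurons 3 were higher (11.1%) and 4 lower (15.9%).

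By the smaller of its 2 differences, the most raised shared gene was Rad54b, a DNA translocase of homologous recombination. By the mean of the sorted groups minus tissue, Fos (2.61), Fosb (2.37) and Lcn2 (2.21) lay above Rad54b (2.12). The levels of Rad54b were 9.02, 8.50, 9.57, 9.75 and 8.90 in astrocytes, 8.78, 8.49, 9.69, 9.14 and 9.38 in neurons and 6.53, 7.59, 6.64, 7.6 and 6.67 in tissue. The preparations were alike in level and stood clear of tissue, at 2.14 ± 0.29 (adjusted p = 1.2e-05) and 2.09 ± 0.29 (5.8e-05), with a 95% interval of -0.57 to 0.68 for the difference between them. Slc38a5, a transporter of glutamine and other neutral amino acids on chrX:8271381-8280179 (GRCm38.p6), was at 11.4, 10.8, 11.7, 11.6 and 11.3 in astrocytes, 10.95, 10.6, 11.1, 11.4 and 11.3 in neurons and 8.77, 9.29, 9.17, 9.10 and 8.90 in tissue. It differed by 2.32 ± 0.19 and 2.01 ± 0.19. Gpc2, glypican 2, a heparan sulfate proteoglycan of developing neurons, was higher by 2.01 ± 0.18 and 1.88 ± 0.18, with tissue at 6.95 to 7.39 and the sorted arrays at 8.66 to 9.58.

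Ddah2, of the dimethylarginine hydrolase family, differed by 1.80 ± 0.15 in astrocytes and 1.39 ± 0.15 in neurons, and Sorcs2, a sorting receptor that binds proneurotrophins, by 1.93 ± 0.23 and 1.34 ± 0.23. Lcn2, lipocalin 2, an iron-carrier-binding protein of neutrophils and reactive astrocytes, was at 10.1, 9.56, 8.85, 9.53 and 8.76 in astrocytes, 7.72, 8.73, 8.98, 8.72 and 8.97 in neurons and 6.44, 6.01, 6.93, 7.55 and 6.97 in tissue. All sorted arrays lay above tissue, by 2.58 ± 0.32 and 1.84 ± 0.32 on average. It was the 1 shared gene among 8 tested of blood leukocytes and platelets, 12 of whose 20 genes were not tested. Slc4a4, a sodium bicarbonate cotransporter, was the sole astrocyte marker of 19 that was higher in both, at 2.20 ± 0.21 and 0.88 ± 0.21, and its call was lost when a gene's detected probes were averaged.

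H3c7, a histone H3 gene of the clusters that are transcribed in S phase, was the sixth of the 12 most raised genes. It was at 9.43, 9.52, 8.67, 9.84 and 9.37 in astrocytes, 8.51, 7.93, 8.55, 8.54 and 7.54 in neurons and 6.84, 5.98, 6.70, 6.95 and 6.56 in tissue. The groups did not overlap between sorted and tissue, and the differences were 2.76 ± 0.25 and 1.61 ± 0.25. Of 44 tested genes of these clusters, a family assembled after H3c7 was seen, 14 were higher in both and 0 lower (all genes: 2.37% and 5.16%). The 14 differed by 0.41 to 2.76 in astrocytes and 0.52 to 1.64 in neurons. Their near-identical sequences can share probe signal, so the members cannot be counted as separate. Of 17 markers of dividing cells 16 were higher in neurons (all genes: 11.1%), where their mean level was 9.29 to 9.69 against 6.71 to 6.93 in tissue, and 1 was higher and 5 lower in astrocytes (24.2% and 27.6%), at 6.45 to 6.67. The sole marker higher in both was Hmgb2, a chromatin protein, at 0.38 ± 0.14 and 2.26 ± 0.14, and its astrocyte call was lost in 5 of the 15 fits, with an adjusted p of up to 0.0895 without astrocyte replicate 2.

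Genes of axonal transport and the axonal cytoskeleton went both ways. Of 18 tested, 4 were higher in both (Dctn1, Kif1a, Kif5a and Sptbn1) and 3 lower in both (Map1lc3a, Nefm and Tubb4a). Over all genes the shares were 2.37% higher and 5.16% lower in both. Kif5a, a kinesin heavy chain that carries cargo along axons, was at 14.5, 14.5, 14.2, 14.3 and 14.6 in astrocytes, 15.3, 14.9, 15.4, 14.7 and 15.2 in neurons and 13.1, 14.1, 13.8, 13.2 and 12.9 in tissue. Both sorted groups lay above tissue, by 1.04 ± 0.21 and 1.69 ± 0.21. Kif1a, which carries synaptic vesicle precursors, differed by 1.13 ± 0.30 and 1.88 ± 0.30. Dctn1, a subunit of the dynein activator dynactin, was detected on 0 of 5 tissue arrays and was at least 1.57-fold higher in astrocytes and at least 1.72-fold higher in neurons. In the opposite direction, Tubb4a, a beta-tubulin, was lower by -1.19 ± 0.23 in astrocytes and -0.84 ± 0.23 in neurons. Nefm, the medium neurofilament chain, was lower by -3.75 ± 0.16 and -0.53 ± 0.16, and without neuron replicate 3 its adjusted p was 0.0593.

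Lists of transcripts known from cell processes were counted as well. Of 19 dendritic transcripts Kif5a was higher and Bdnf lower in both (all genes: 2.37% and 5.16%). Bdnf, the neurotrophin, was lower by -1.58 ± 0.32 in astrocytes and -1.81 ± 0.32 in neurons, with tissue at 7.71 to 8.6 and the sorted arrays at 5.68 to 7.53. Of 15 transcripts found in glial processes Carhsp1 and Kif1a were higher in both and 0 lower (all genes: 2.37% and 5.16%). The call of Carhsp1 was lost without tissue replicate 4 (adjusted p = 0.0534) and with all 30 arrays in 1 fit (0.0760). Of 27 oxidative phosphorylation genes 3 were lower in both (Atp5b, Atp5g3 and Ndufv2) and 0 higher (all genes: 5.16% and 2.37%). The 3 had differences of -0.30 to -0.49. With arrays scaled to a common median 0 of them was called, and the smaller difference of Atp5b turned to 0.09. Ndufv2 lost its call with the chip as a block (adjusted p = 0.0507).

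The other lists had at most 1 shared gene in each direction (all genes: 2.37% higher and 5.16% lower in both). Among 20 tested cytosolic ribosomal protein genes, 14 of cholesterol synthesis, 16 metallothionein and antioxidant genes, 13 mural genes and 15 medium spiny neuron genes 0 were shared by limma. At an unadjusted p under 0.05 in both preparations the count was 1 higher for cholesterol synthesis and 0 for the other 4 lists. Singly, 13 of the 14 cholesterol synthesis genes were higher and 0 lower in astrocytes (all genes: 24.2% and 27.6%). In neurons 0 were higher and 5 lower (11.1% and 15.9%). Of the 16 metallothionein and antioxidant genes 8 were higher and 1 lower in astrocytes (all genes: 24.2% and 27.6%). In neurons 1 was higher and 6 lower (11.1% and 15.9%). Of 18 hypoxia genes P4ha1 was higher and Aldoa lower in both, and of 17 p53 and cell death genes Fas was higher and Plk3 lower. In these lists every one of the 4 calls was lost in at least 1 fit without 1 array, with adjusted p of up to 0.0883 (Plk3, without astrocyte replicate 3), 0.0809 (Fas, without neuron replicate 3), 0.0804 (P4ha1, without neuron replicate 2) and 0.0689 (Aldoa, without neuron replicate 5). Of 9 red cell genes Fech was higher in both, a call lost in 6 of the 15 fits, with an adjusted p of up to 0.0743 without neuron replicate 2. The call of Fech was also lost with no background correction (0.314). In neurons 5 of these 9 red cell genes were higher (all genes: 11.1%) and 1 lower (15.9%). Of 18 newborn neuron genes Tubb2b was higher in both, at 1.20 ± 0.11 in astrocytes and 0.47 ± 0.11 in neurons, and its call was lost when detected probes were averaged (adjusted p = 0.0702). In neurons 15 of these 18 newborn neuron genes were higher (all genes: 11.1%).

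The same differences were measured in the 15 dexamethasone arrays, which were not in the fit that called the 995 genes but shared its normalization and detection filter. There, 288 genes were higher in both (2.18%) and 438 lower in both (3.31%), 726 in all (5.49%). Of the 313 raised under saline, 296 had positive differences in both preparations under dexamethasone and 130 were called in both. Of the 682 lowered genes 639 had negative differences in both, and 332 were called in both. For 0 of the 995 were both calls made with the opposite sign. The median differences of the raised genes under dexamethasone were 0.92 in astrocytes and 0.70 in neurons, and those of the lowered genes -1.03 and -0.77. Of the 12 most raised genes, 10 were called in both again, the exceptions being Lcn2 (2.55 and 0.85) and Ccm2l (1.39 and 0.91), and so were 12 of the 12 most lowered.

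Without tissue replicate 5 of the dexamethasone arrays, which stood apart, 407 genes were higher and 581 lower in both, of which 155 and 405 were among the saline genes. By list, 11 of 19 interneuron genes, 7 of 11 oligodendrocyte precursor genes and 7 of 18 endothelial genes were called in both under dexamethasone as well as under saline, in the same directions. Over all 13228 tested genes 332 were lower and 130 higher under both agents. Other lists kept fewer: 2 of 14 oligodendrocyte, 1 of 13 meningeal fibroblast and 0 of 27 oxidative phosphorylation genes were lower under both agents. Of the immediate early list 2 of 38 (Fos and Fosb) were higher in both and 1, Sik1, was lower in both. Fos was higher by 4.11 in astrocytes and 1.79 in neurons and Fosb by 3.32 and 1.37, whereas Ccn1, at 3.49 in astrocytes, was at -0.08 in neurons.

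**Figure D5:**
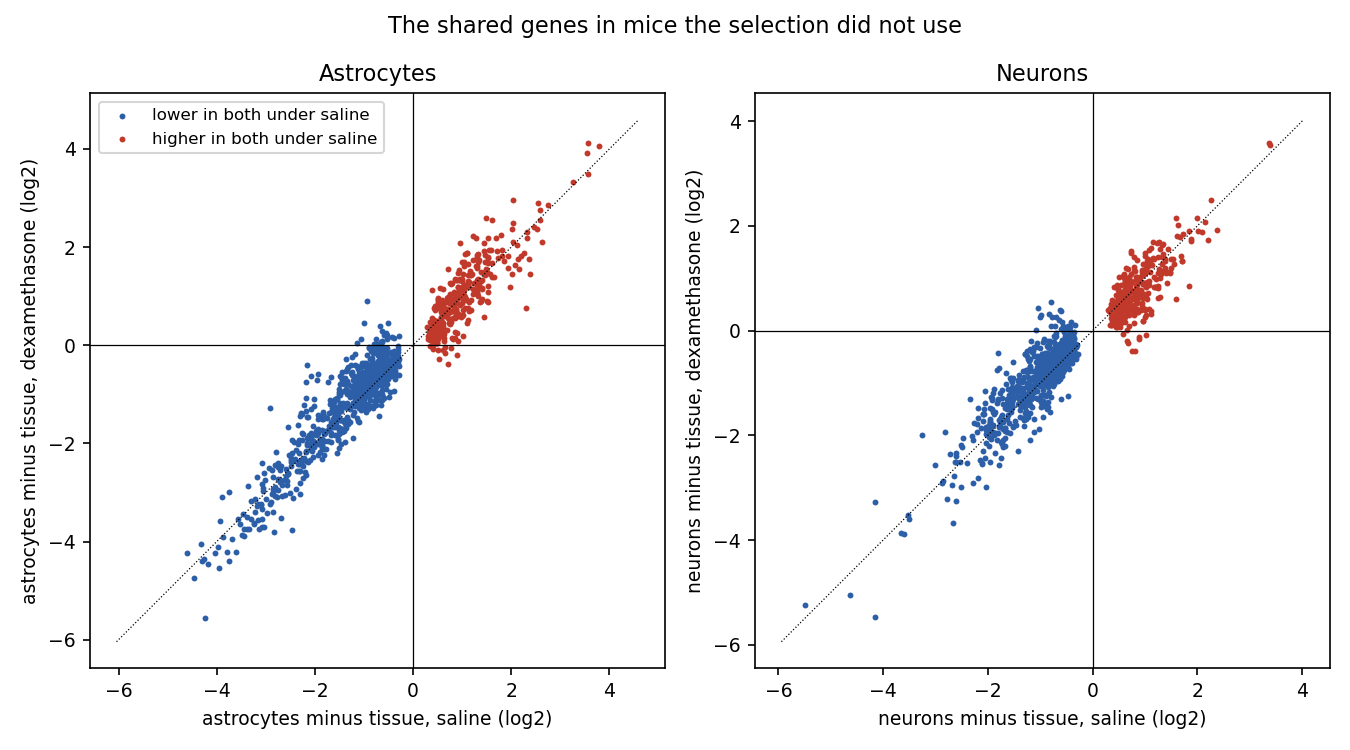
Log2 difference from tissue of the 995 shared genes under saline (horizontal axis) and under dexamethasone (vertical axis), in astrocytes (left) and neurons (right). The genes were called in the fit of the saline arrays, the dotted line marks equal differences, and most points lie in the quadrant of their saline sign.

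Whether the difference between sorted mean and tissue depended on the agent was examined through an interaction term fitted to all 30 arrays. It was called for 1 gene (0.00756%), which was not a shared gene, and 669 genes had an unadjusted p under 0.05 (5.06%). The fit held tissue replicate 5 of the dexamethasone arrays, which stood apart, and was not repeated without that array. A missed threshold does not show that the differences were equal. For Fos the interaction was 0.34 ± 0.42 (SE) and for Sst -0.17 ± 0.35.

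Properties outside the measured levels differed little between the shared genes and the rest. The median span of the gene in RefSeq was 20.4 kilobases for 298 raised genes, 25.1 for 645 lowered genes and 22.2 for 12304 tested genes. By RefSeq biotype 4 raised, 9 lowered and 225 of all tested genes were noncoding. A second look came from further detected probes, which not every shared gene had. Of these probes 131 of 175 for the raised genes and 249 of 333 for the lowered genes had the same sign in both preparations. The opposite sign in both was found for 11 and 27. Over all 13228 tested genes, called or not, 3075 were higher and 3324 lower in both. Of the 313 raised genes 11 were detected on none of the 5 tissue arrays. Without any 1 array in turn, 182 of the 313 and 456 of the 682 kept their call in all 15 fits, the 24 genes named as the most raised and most lowered among them.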

How the data were processed

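RNA was measured on Illumina bead arrays in 6 groups of 5 arrays (astrocytes, neurons and tissue, each after saline or dexamethasone). The authors deposited a table of log2 intensities for 46174 probes, not yet normalized across arrays, with no detection p. A second table that the authors deposited is on a log2 scale. It matched a further log2 of quantile-normalized values to within 5e-10, and was taken back to log2 intensity for use as an alternative. Per the labels' protocols, total RNA was amplified and labelled with biotin. The sources used here do not name the scanner software or any background step.

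For want of control probes, 1588 probes of olfactory, taste and other sensory receptor genes served as background. They set the normexp correction (offset 16), after which the 30 arrays were quantile-normalized. A probe's detection p was the fraction of those receptor probes at least as bright as it. A probe had to pass 0.05 on 5 or more arrays, and 22568 of 44586 did. The platform annotation gave 35725 probes 1 symbol, 0 several and 10449 none. Symbols were updated through RefSeq (GRCm38.p6) by Entrez ID for 28566 probes and by accession for 2632, and 4527 kept theirs. The brightest probe stood for a gene, which gave 13228 genes. Spot saturation is not flagged in the tables.

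All fits used limma 3.58.1 in R 4.3.3 (lmFit and eBayes, two-sided, Benjamini-Hochberg over all genes) on the 15 saline arrays, the 15 dexamethasone arrays apart, and all 30 for the interaction. The fit was tested on simulated data. Differences are given with the SE of the fit. "At least N-fold" sets the mean of the group with signal against a floor in the other group, which on each array is the dimmest detected probe or, if brighter, the gene itself. The number of arrays limits the precision, and p-values measure the spread between arrays, each of an individual mouse. Whether preparations of 1 replicate number shared a mouse is not stated in the labels, and the main fits treat all arrays as independent.

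Named were the 12 raised and the 12 lowered shared genes with the largest smaller difference and no overlap of sorted and tissue arrays, up to 6 shared members of each list, and any gene of the immediate early, heat shock and inflammatory lists. Other members of a list are named where the list is counted. The members, the lists and this rule were chosen with earlier results of these data known. Replicate numbers pair the arrays by chip, as the label descriptions state. Deviations from group means correlated at 0.099 on average within a chip (0.025 to 0.25) and at -0.024 between chips. Alternatives were background correction, normalization, the detection filter, the deposited value table, the chip as a block, the arrays in the fit, the variance model, the choice of probe, the size of the difference and each array left out.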

Additional observations from a re-analysis of the deposited data

Results flagged for a closer look

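In 648 sets of 5 saline arrays (each of 184 named genes and 32 gene lists in 1 group), the highest or lowest array was tested for its gap to the others, and 33 stood apart by Dixon's criterion. Chance flags about 1 in 20 such sets, 32.4 of 648, and sets on the same arrays are not independent. On neuron arrays, Lcn2 was at 7.72 in replicate 1 against 8.72 to 8.98 in the other 4, and Trh was at 7.08 in the same replicate against 8.09 to 8.30. Fosb was at 7.95 in neuron replicate 5 against 9.09 to 9.52, and Slc10a4l at 5.72 in neuron replicate 2 against 6.81 to 7.25. Of the 24 most raised and most lowered genes only these 4 were among the 33, and they kept their calls in every fit that left out 1 array.

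Among other shared genes, neuron replicate 1 was low for Slc17a6 (9.18 against 9.77 to 9.99 in the other 4) and Slc13a4 (5.86 against 6.80 to 7.14). Npy was at 11.2 in neuron replicate 2 against 9.96 to 10.2. In neuron replicate 5, Vamp1 was at 9.07 against 8.30 to 8.40 and Aebp1 at 5.98 against 5.33 to 5.47. On astrocyte arrays, Ptgds was at 12.7 in replicate 4 against 11.2 to 11.3 and Meg3 at 6.56 in the same replicate against 5.49 to 5.72. Gal was at 8.51 in astrocyte replicate 3 against 6.61 to 7.04, Tmem119 at 6.66 in replicate 1 against 7.80 to 8.25, and C1qb at 10.7 in replicate 5 against 10.03 to 10.2. On tissue arrays, Syp was at 14.4 in replicate 2 against 13.8 to 13.9, and Irf7 at 6.53 in the same replicate against 5.68 to 5.90.

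Among immediate early, heat shock and inflammatory genes outside the shared set, neuron replicate 5 was low for Hspa1a (6.46 against 7.81 to 7.98) and Tnfaip3 (5.996 against 7.35 to 7.76). Neuron replicate 1 was low for Hspa4l (6.94 against 8.07 to 8.48) and Dnajb1 (11.84 against 11.97 to 11.98). In neuron replicate 2, Vcam1 was at 5.9975 against 8.41 to 9.06 and Myd88 at 8.49 against 8.87 to 8.93. Relb was at 7.56 in astrocyte replicate 4 against 5.70 to 6.21, and Fkbp4 at 11.7 in astrocyte replicate 1 against 11.3 to 11.4. Tissue replicate 4 was low for Dusp2 (6.01 against 6.66 to 6.89) and Nfkbid (7.26 against 7.83 to 8.01). Egr3 was at 12.6 in tissue replicate 1 against 13.1 to 13.2, and Hspb8 at 11.2 in tissue replicate 2 against 11.46 to 11.5.

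Among list levels, the general neuron list was at 10.7 in astrocyte replicate 5 against 10.2 to 10.3 in the other 4. The dividing cell list was at 9.69 in neuron replicate 3 against 9.29 to 9.36, and the p53 and cell death list at 9.24 in neuron replicate 1 against 9.51 to 9.61. The heat shock and chaperone list was at 10.4 in astrocyte replicate 2 against 10.5 in the others, and the hypoxia list at 9.75 in tissue replicate 1 against 9.95 to 10.03.

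Pdk4, which encodes a kinase that restrains pyruvate oxidation, was the 1 gene whose sorted mean minus tissue differed between the agents. The interaction was -1.21 ± 0.19 (limma, adjusted p = 0.0125, 5 arrays in each of 6 groups). Pdk4 was no shared gene: astrocytes differed from tissue by 2.497 and neurons by -1.29 under saline, and by 1.71 and -2.92 under dexamethasone.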

How the results depend on the processing

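The 313 raised and 682 lowered genes became 65 and 201 when a difference of at least 2-fold in both preparations was also required. Under the other alternatives both counts stayed within 1.5 times of these, and 0 genes were called with the opposite sign. Leaving out 1 saline array gave 247 to 326 raised and 549 to 700 lowered genes, and 1627 to 2038 higher and 2223 to 2581 lower genes for the sorted mean minus tissue. Leaving out 1 dexamethasone array, an alternative chosen after seeing the data, gave 218 to 407 and 348 to 581 there. With the replicate block, the chip as a fixed term, 361 genes were higher and 692 lower in both under saline, 2090 and 2591 in the sorted mean, 283 and 419 under dexamethasone, and 1 gene was called in the interaction. Of the named genes the block ended the calls of Slc13a4, Slc6a13, Shmt2, Gars and Ndufv2, brought Gadd45g in (adjusted p = 0.0342) and changed no other call. With arrays scaled to a common median 370 genes were higher and 578 lower, 39.0% higher, against 242 and 624 with all 30 arrays in 1 fit, and the smaller difference of Atp5b reversed from -0.30 to 0.088 with that scaling and to 0.043 with cyclic loess; the cause was not tested. Of 106 named shared genes 66 kept their call under every alternative and fit without 1 array other than the 2-fold requirement, the 24 most raised and most lowered among them. Myelin and oxidative phosphorylation calls depended on the scaling and had 0 members under cyclic loess. Dim genes have bounds only, and a difference near background is compressed by the offset.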
